A study of Homo sapiens with 2 samples.

Results

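The insulin-like growth factor (IGF) axis was described here by 10 genes: the ligand IGF2, the receptors IGF1R and IGF2R, the binding proteins IGFBP1, IGFBP2, IGFBP3, IGFBP4 and IGFBP6, and the receptor substrates IRS1 and IRS2. The genes were picked by name, with earlier results of these data known. Each was read from the transcript cluster that the platform annotation assigns to that 1 symbol alone. Where several such clusters exist, the one with the highest mean was taken. All 10 were found among 33616 named genes. The samples were total RNA of Hep3B, an established human hepatocellular carcinoma line, from SOX4 knockout cells made with CRISPR/Cas9 and from wildtype parental cells, with 1 array for each. Both were grown in the same medium with 10% fetal bovine serum and harvested at 80% confluence, and the knockout cells alone were kept in puromycin at 1 µg/ml. The labels do not say whether the knockout line is a clone or a pool. Genotype, puromycin, selection and the array itself cannot be told apart. With 1 array per genotype no test was possible, so "higher" and "lower" below describe these 2 arrays, and differences are knockout minus parental on the deposited log2 scale.

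IGF2 is a secreted growth factor, made from an imprinted gene in the fetal liver and often active in liver cancer cells. It acts on the tyrosine kinase IGF1R and on the insulin receptor, whose docking proteins IRS1 and IRS2 lead to PI3K and AKT, whereas IGF2R takes it up for breakdown in lysosomes. The IGFBPs bind IGFs in the extracellular fluid and limit or prolong their access to receptors, and some also act on cells without IGFs. In hepatocytes IGFBP1 and IRS2 are both transcribed under FOXO factors and repressed by insulin.

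The main differences were in the binding proteins. IGFBP1 was 11.4-fold higher and IGFBP3 8.19-fold higher in the knockout array. In such bulk RNA, a change in the number of cells that make a transcript and a change in its amount per cell cannot be told apart. The substrate IRS2 was 2.31-fold lower, and the ligand IGF2 lay at the 2-fold line on the lower side without passing it. Thus 2 of 10 genes were at least 2-fold higher (1 on the log2 scale) and 1 of 10 at least 2-fold lower, while 7 were within 2-fold. Shares over all genes are given as background and not as a test, since the 10 were picked with earlier results known. Of all named genes, 5.3% were at least 2-fold apart, 3.36% were 2-fold higher and 1.94% 2-fold lower. A level filter was set at 4.78, the median over genes of the higher of both array values. Above it, 6.5% of 16808 genes were 2-fold higher and 3.64% lower, and of the 11190 protein-coding genes among them 8.28% and 4.27%. Of the 10 genes, 7 lay above that filter, and IGFBP2, IGFBP4 and IGFBP6 lay under it. The median difference of the 10 was -0.39, against 0.00 over all named genes, and their mean was 0.27, so median and mean differed in sign. Over the members above the level filter the median was -0.54, and with that filter at the 75th percentile -0.11. IGFBP1 passes the latter filter only through its knockout value, and IRS1 does not pass it. In all, 4 genes stood above 0 and 6 below.

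**Figure D1:**
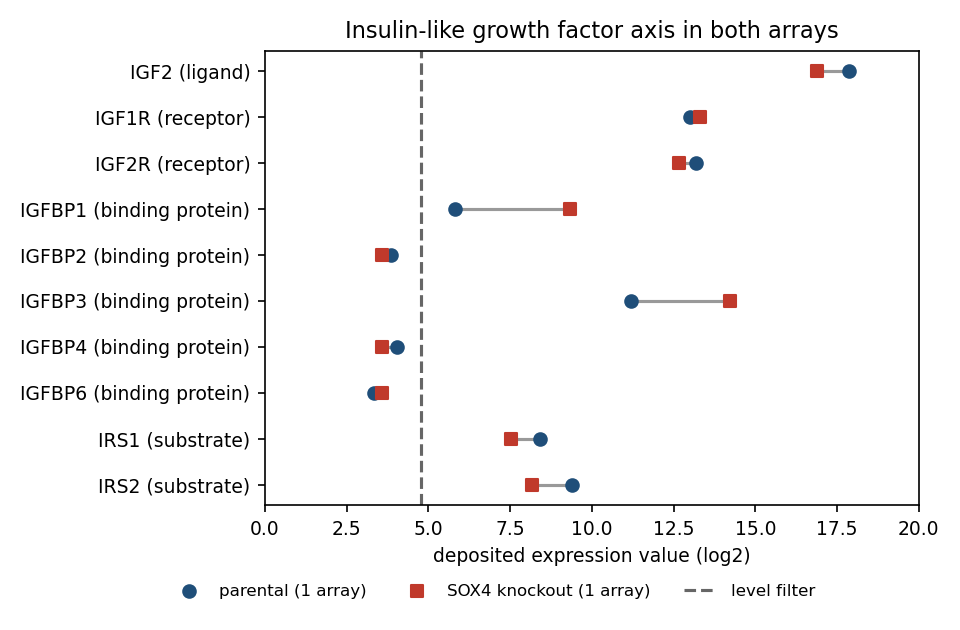
Deposited log2 value of each gene (x axis) in the parental array (circles) and the SOX4 knockout array (squares), 1 array each, with the level filter of 4.78 as a dashed line. IGFBP1 and IGFBP3 are the genes with the widest gap, and IGFBP2, IGFBP4 and IGFBP6 lie left of the filter in both arrays.

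The targeted gene and cell type markers were read first. SOX4 stood at 12.44 against 13.14 in knockout and parental cells, a difference of -0.70, and probes of this kind do not show whether an edited transcript still codes for protein. Hepatocyte markers were all above the filter in both arrays (9 of 9 measured), with albumin, ALB, at 18.84 and 18.87, and 2 of the 9 were 2-fold lower in the knockout array, none higher. These were AFP, the fetal serum protein of hepatomas, at 9.73 against 15.50, and the apolipoprotein gene APOA1 at 11.27 against 12.44. Endothelial markers were under the filter in both arrays, 6 of 6. Among 7 fibroblast and stellate markers 1 was 2-fold higher in the knockout array, LUM at 12.69 against 7.90, and log2 of their summed level was 12.77 against 9.57. COL1A1, COL1A2 and PDGFRB were above the filter in both arrays and within 2-fold, with COL1A2 at 6.17 against 6.32, and THY1, DCN and ACTA2 were under it in both. Of 5 leukocyte markers, LYZ and CD68 were 2-fold higher, with log2 of the summed level at 12.68 against 11.08, while CD14 was above the filter in both arrays at 6.26 and 5.92, and PTPRC and CD3E were under it. Cholangiocyte markers had no gene past 2-fold among 5. The part of these marker differences in the values below was not tested. The highest values of all clusters were 19.795 and 19.818, more than the 16 bits of a scanner hold on this scale, so folds are those of the deposited scale.

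Promoter sequence was examined for the genes of the axis that differed, since the knocked-out gene codes for a DNA-binding factor and IRS2 is a known FOXO target. RefSeq sequences (GRCh38.p14) were matched for 8 of the 10 genes, all but IGFBP1 and IGF2. The 250 bases before the start of IGFBP3 (chr7:45921273-45921522, minus strand), IRS1 (chr2:226799821-226800070, minus strand) and IRS2 (chr13:109786584-109786833, minus strand) are printed 5′ to 3′ on the gene's strand, as 1 of the binding proteins that were higher and both substrates that were lower. Capitals mark matches to the motifs searched.
IGFBP3: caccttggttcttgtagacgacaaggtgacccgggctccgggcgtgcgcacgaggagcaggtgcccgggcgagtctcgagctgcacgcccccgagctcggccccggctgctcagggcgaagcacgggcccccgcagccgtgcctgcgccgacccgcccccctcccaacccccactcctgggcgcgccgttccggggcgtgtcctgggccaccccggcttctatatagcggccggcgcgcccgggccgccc
IRS1: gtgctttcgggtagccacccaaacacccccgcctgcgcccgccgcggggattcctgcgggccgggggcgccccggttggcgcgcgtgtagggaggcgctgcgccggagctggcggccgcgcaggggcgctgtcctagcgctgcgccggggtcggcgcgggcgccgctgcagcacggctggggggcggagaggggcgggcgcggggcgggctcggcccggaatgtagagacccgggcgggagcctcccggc
IRS2: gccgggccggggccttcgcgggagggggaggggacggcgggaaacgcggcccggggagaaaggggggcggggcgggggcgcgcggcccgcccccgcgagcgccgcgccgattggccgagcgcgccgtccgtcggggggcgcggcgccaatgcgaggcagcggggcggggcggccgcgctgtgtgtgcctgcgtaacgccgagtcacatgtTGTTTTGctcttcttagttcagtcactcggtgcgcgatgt
The motifs were AACAAAG, a SOX-type site, CAAAACA, the core of insulin response elements, GTAAACA, a forkhead site, and TATAAA, each on both strands. The IRS2 window held 1 match, TGTTTTG, which is CAAAACA on the opposite strand, 40 bases before the start. IGFBP3 and IRS1 held no match to these letters. CAAAACA was found in 4.43% of 27305 promoter windows of the same length, AACAAAG in 4.64%, GTAAACA in 3.01% and TATAAA in 11.3%. Elsewhere in the axis, AACAAAG and GTAAACA occurred once each before IGFBP6 and TATAAA once before IGFBP4, genes under the level filter in both arrays. IGF1R, IGF2R and IGFBP2 had no match. The windows of IGFBP3, IRS1 and IRS2 were rich in G and C, at 76.0%, 80.8% and 76.4%, against a median of 57.6% over all windows. This was not particular to them, as IGF1R stood at 81.2%, IGF2R at 79.2% and IGFBP4 at 71.6%. IGFBP6 was at 61.2% and IGFBP2 at 56.8%. A match is a description of letters and not a bound site.

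IGF2, the ligand, was read from TC1100013131.hg.1 on chromosome 11. It stood at 16.88 in the knockout cells and at 17.88 in the parental cells, a difference of -0.997 that is 0.0032 short of the 2-fold line. Among 113 genes within 0.5 log2 of its mean level, 1 had a more negative difference, and differences in that band had an SD of 0.32. Both values exceeded 16, where the deposited scale is unlike a scanner's. A further transcript cluster that the annotation gives to IGF2 and to the readthrough gene INS-IGF2 together, TC1100013130.hg.1, was not used for the gene and stood at 15.48 against 16.06, a difference of -0.57. Both clusters were thus lower in the knockout array, by different amounts. The insulin-family ligand IGF1 was near the filter in both arrays, at 5.04 and 5.16.

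The receptors differed less. IGF1R, the tyrosine kinase receptor for IGFs, from chromosome 15, had a value of 13.31 with the knockout and 13.00 without it, a difference of 0.31. Of 938 genes of like mean level, 285 were higher by more. IGF2R, which clears IGF2 and also carries enzymes tagged with mannose 6-phosphate to lysosomes, on chromosome 6, stood at 12.65 against 13.20. Its difference of -0.54 was exceeded on the lower side by 121 of 994 genes of like level. The insulin receptor gene INSR stood at 8.62 in both, a difference of 0.00. No receptor in this set passed 2-fold in these arrays.

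IGFBP1, the insulin-repressed binding protein of liver, had 1 transcript cluster, TC0700007434.hg.1 on chromosome 7. Its value was 9.34 with the knockout and 5.82 in parental cells, so that both values lay above the filter, and the difference was 3.52. Among 1629 genes of like mean level, 9 were higher by more, where differences had an SD of 0.84. Over all 16808 genes above the filter it ranked 58 from the highest difference.

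IGFBP3, the main IGF carrier of blood and a regulator of cell growth, had the single cluster TC0700010965.hg.1. It stood at 14.24 in the knockout array against 11.20, a difference of 3.03 with rank 83 above the filter. Of 1029 genes of like level, 5 were higher by more. Differences of at least 8-fold upward, 3 on the log2 scale, were reached by 86 genes, or 0.512% of those above the filter, and IGFBP1 and IGFBP3 are 2 of them.

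The other binding proteins of the axis were dim in both arrays. IGFBP2 stood at 3.57 and 3.86 in the knockout and parental arrays, IGFBP4 at 3.57 and 4.05, and IGFBP6, which prefers IGF2 over IGF1, at 3.59 and 3.35. These values lay under 4.78, with differences of -0.29, -0.48 and 0.24, beside an SD of 0.30 among genes under the filter. IGFBP5, outside the 10 genes, was dim as well at 3.20 and 3.26. IGFBP7, a related protein that binds IGFs weakly, stood at 16.28 against 15.83, a difference of 0.45. Of the 7 IGFBP genes read, those past 2-fold were IGFBP1 and IGFBP3.

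**Figure D2:**
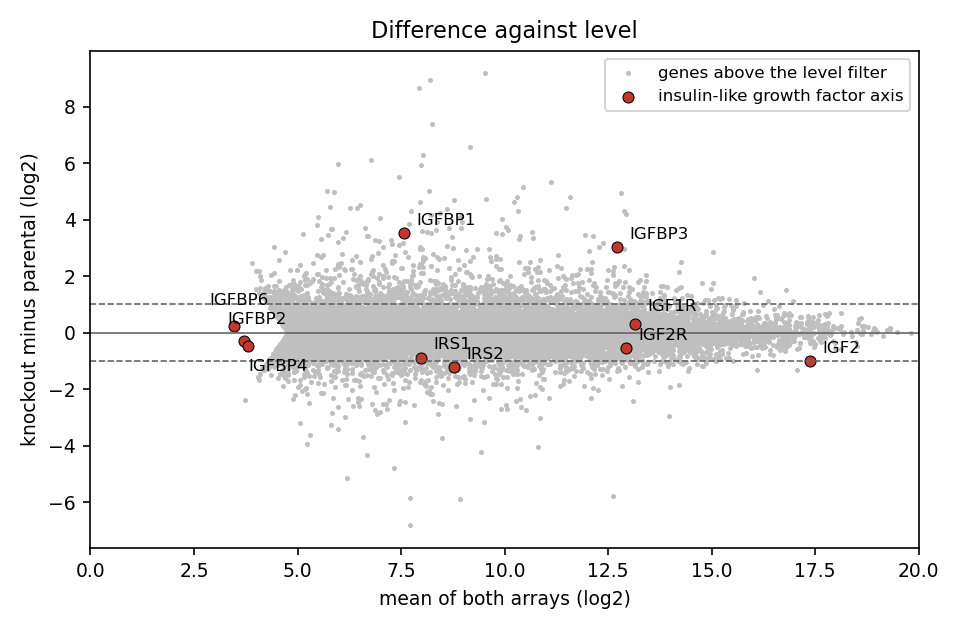
Knockout minus parental difference (y axis, log2) against the mean of both arrays (x axis, log2), with genes above the level filter in grey, the 10 genes of the axis in red and dashed lines at 2-fold. IGFBP1 at 3.52 and IGFBP3 at 3.03 stand high in the cloud, and IGF2 at -0.997 stands at its lower edge for bright genes.

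IRS1 and IRS2, which link IGF1R and the insulin receptor to PI3K, were both lower in the knockout array. IRS1 on chromosome 2 stood at 7.54 against 8.42, a difference of -0.88 or 1.84-fold, and did not pass 2-fold. IRS2 on chromosome 13 stood at 8.18 against 9.39 on its brighter cluster, TC1300009765.hg.1, a difference of -1.21. A further IRS2 cluster, TC1300009766.hg.1, stood at 7.17 against 7.97, which is -0.80 and within 2-fold. The average of both was -1.01, just past 2-fold, while the dimmer cluster alone did not pass. Among genes of like level, 104 of 1530 were lower by more than IRS1 and 48 of 1561 by more than IRS2.

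The place of each gene on its chromosome was set beside its difference, with up to 6 measured neighbours on each side in RefSeq gene order. IGFBP1 and IGFBP3 are direct neighbours among the measured genes. Of the 11 other genes around IGFBP1, 1 was 2-fold higher and 1 lower, and the median was -0.16. ADCY1, an adenylate cyclase, was the former, at 8.21 against 6.96, and the small nucleolar RNA gene SNORA5A the latter, at -1.18. Both were named after their values were seen. TNS3, on the other side of IGFBP3, stood at 14.68 and 14.65, a difference of 0.03, so the pair was bordered by genes within 2-fold, SEPTIN7P2 and TNS3.

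Around IGF2, none of 12 neighbours was 2-fold apart and 2 were above the filter. MIR483, a microRNA gene within IGF2, was at 4.09 and 3.86, under the filter in both arrays. IRS2 had no neighbour past 2-fold among 12, of which 4 were above the filter, and their median was -0.07. IRS1 had 1, its direct neighbour RHBDD1, a membrane protease, at 10.57 against 9.56, a difference of 1.005 in the direction opposite to IRS1. The neighbours of IGF2R had a median of -0.08, and none of them passed 2-fold, nor did any around IGFBP2 and IGFBP4. Of 12 neighbours each, 6 around IGF2R, 5 around IGFBP2 and 6 around IGFBP4 were above the filter. Those around IGF2R were MRPL18 at -0.94, ACAT2 at -0.64, WTAP at -0.47, CHP1P2 at -0.38, LPAL2 at 0.14 and SOD2 at 0.46. IGF2R itself stood at -0.54, and whether it shares a cause with them was not tested. Over all named genes 5.3% were at least 2-fold apart, and 10.1% of those above the filter. IGF1R had 1 neighbour past 2-fold, ARRDC4 at 1.01, and IGFBP6 had 1, TNS2 at 1.03, both named after their values were seen. The other IGF1R neighbours above the filter were LINC00923 at 0.24, SYNM at 0.80, TTC23 at 0.26 and LRRC28 at 0.52. IGF1R itself stood at 0.31, and its neighbours under the filter lay on both sides of 0.

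**Figure D3:**
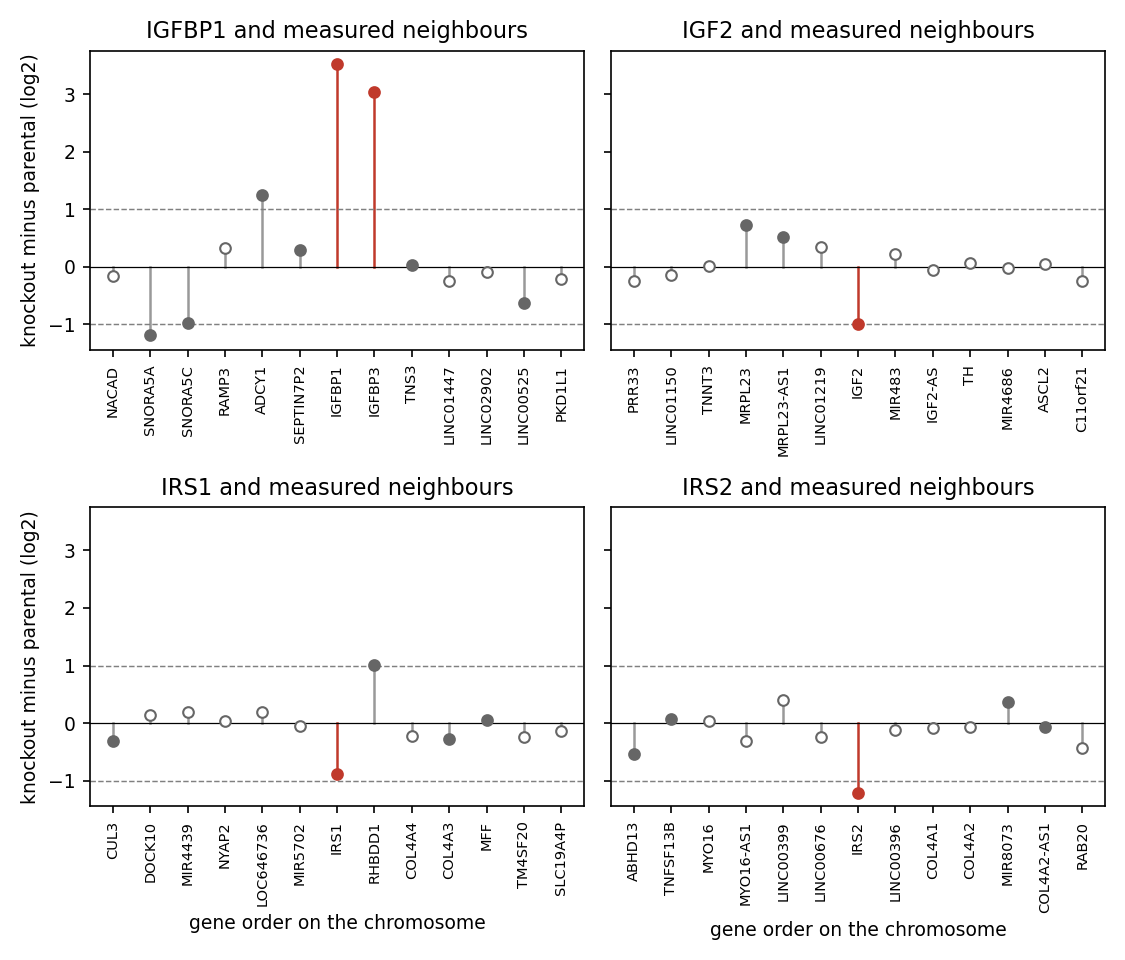
Knockout minus parental difference (y axis, log2) of IGFBP1, IGF2, IRS1 and IRS2 and of up to 6 measured neighbours on each side in chromosomal order (x axis), with genes of the axis in red, open circles for genes under the level filter and dashed lines at 2-fold. IGFBP1 at 3.52 and IGFBP3 at 3.03 stand side by side, while TNS3 next to them is at 0.03.

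The genes most like IGFBP1 and IRS2 in difference were sought among protein-coding genes within 0.5 log2 of their mean, over these 2 arrays. Of 1034 such genes, those closest to IGFBP1 were APOBEC3C at 3.58, SLC67A1 at 3.61 and CD109 at 3.28. Of 1191 such genes, the closest to IRS2 were COL5A2 at -1.21, PDGFRL and ZNF841, both at -1.20.

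Genes that act around the axis were read from 10 lists, which hold 168 distinct genes beside the 10, of which 151 were measured and 116 lay above the filter. Of the 151, 11 were 2-fold higher and 10 lower, and their median was 0.02, beside the 0.00 of all named genes. Those apart made up 18.1% of the listed genes above the filter. Of protein-coding genes above it 12.6% were at least 2-fold apart, and of all genes above it 10.1%. The lists were chosen with earlier results of these data known, so the gap between these shares cannot be read as a result about them. A gene passes the filter by the higher of both array values, as TIMP1 did through the knockout array alone.

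Among other adaptors and ligands of the insulin and IGF family, 2 of 14 were 2-fold lower and none higher, with a median of -0.06. SHC1, which couples receptors to Ras, stood at 11.66 against 12.79 in the knockout and parental arrays, and GRB14, an inhibitor of the insulin receptor, at 10.88 against 12.01. The related adaptor GRB10 stood at 0.32.

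Proteases that cleave IGFBPs, and their inhibitors, had 3 of 16 genes 2-fold higher and 1 lower, and the median was 0.08. With the filter at the 75th percentile the median was 1.39, from STC2, CTSD, ADAM9 and TIMP1 alone. All of these were at least 2-fold apart, and TIMP1 passed through its knockout value only, so 1.39 does not describe the whole list. TIMP1, an inhibitor of metalloproteinases, stood at 8.96 against 3.01, with the parental value under the filter. The membrane protease ADAM9 was at 15.07 against 13.44, and the lysosomal protease CTSD, picked after its value was seen, at 16.17 against 15.01. STC2, an inhibitor of the IGFBP protease PAPPA, was at 8.22 against 9.53, a difference of -1.31. PAPPA and PAPPA2 themselves were under the filter in both arrays, at 3.54 and 3.34 in the knockout array. IGFBP-related secreted proteins had none of 10 past 2-fold, with a median of 0.39. With the filter at the 75th percentile the median was 0.70, from CCN1 and CCN2 alone. CCN2 was highest among those above the level filter at 0.90.

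Proteins that bind IGF2 messenger RNA and genes of the imprinted region near IGF2 on chromosome 11 held 12 measured genes, of which 3 were 2-fold higher and 1 was lower; their median was -0.14. IGF2BP1, IGF2BP2 and IGF2BP3, which bind IGF2 transcripts, stood at -0.26, -0.16 and -0.06. CDKN1C, a growth-restraining inhibitor of cyclin-dependent kinases, was at 6.04 against 8.40, a difference of -2.36. SLC67A1, a transporter listed under its older name SLC22A18, was at 9.82 against 6.21, which is 3.61 and the same gene that stood close to IGFBP1 above. PHLDA2, a placental growth inhibitor, stood at 1.62 and the tetraspanin CD81 at 1.12, both picked after their values were seen. Genes of that imprinted region thus went both ways in these arrays.

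Downstream of the substrates, PI3K, AKT and mTOR genes had 1 of 26 past 2-fold, the regulatory subunit PIK3R3 at 8.83 against 10.05, a difference of -1.22. The list's median was -0.08, with AKT1 highest at 0.82 and DDIT4, an inhibitor of mTOR, at -0.91. Ras and MAP kinase genes had 2 of 17 lower and none higher, with a median of -0.02. The lower genes were the feedback inhibitors SPRY1 at -1.28 and DUSP6 at -1.18, and HRAS was highest at 0.91.

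FOXO factors and their insulin-repressed targets had 1 of 17 2-fold higher and 2 lower, and the median was -0.12, or -0.45 with the filter at the 75th percentile. That latter median was from INSIG2, CCNG2, BCL6, PPARGC1A, SESN3, FOXO1, FOXO3 and CITED2 alone. TXNIP, an inhibitor of thioredoxin and of glucose uptake, stood at 7.88 against 5.72, a difference of 2.17, KLHL24 at -1.21 with the knockout value under the filter, and INSIG2, picked after its value was seen, at -1.15. TXNIP and KLHL24, with the largest differences of the list, did not pass the filter at the 75th percentile, so -0.45 does not describe the whole list. FOXO1 and FOXO3 themselves were at -0.20 and 0.12. PCK1, a gluconeogenic FOXO target, stood at 0.18 with both values near the filter. Genes induced by insulin in liver had 2 of 11 higher and 1 lower, and the median was 0.21. PNPLA3, a lipase, stood at 1.82 and HK2, a hexokinase, at -1.39. EGR1, an early growth response factor picked after its value was seen, stood at 1.07.

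The growth hormone arm, which drives IGF1 and IGFBP3 in liver, held 9 genes, 2 of them 2-fold higher and none lower, and a median of -0.03. With the filter at the 75th percentile the median was 0.33, from PRLR, STAT5B and GHR alone. GHR, the growth hormone receptor, stood at 13.33 against 12.00, a difference of 1.33, and its feedback inhibitor SOCS2 at 8.38 against 6.93, which is 1.45. JAK2, the kinase bound to that receptor, was at -0.62. Partners of IGF2R in mannose 6-phosphate sorting had none of 19 past 2-fold and a median of 0.19, from GGA2, a sorting adaptor, at -0.56 to the lysosomal glucosidase GAA at 0.83.

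**Figure D4:**
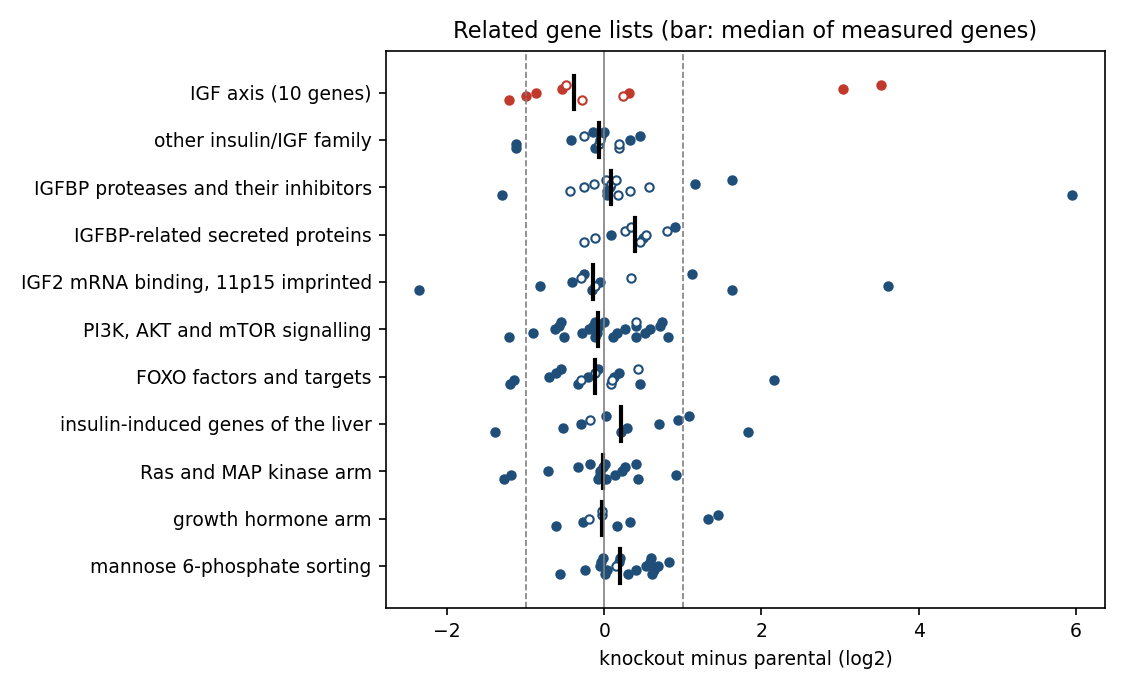
Knockout minus parental difference (x axis, log2) of each measured gene of the IGF axis (red) and of 10 related lists (blue), with open circles for genes under the level filter, black bars for list medians and dashed lines at 2-fold. List medians lie between -0.39 for the axis and 0.39 for IGFBP-related secreted proteins. The point at 5.95 is TIMP1, whose parental value of 3.01 lies under the level filter.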

How the data were processed

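Total RNA labelled with biotin was hybridised to an Affymetrix human whole-transcript array, 1 for SOX4 knockout and 1 for parental Hep3B cells, grouped by the genotype labels. The deposited values are log2 expression per transcript cluster, for which the submitters' processing notes name RMA (background correction, normalization between arrays and probe summary) and the authors' use of Transcriptome Analysis Console. No version or genome build is given in those notes, and base 2 is taken from RMA's usual output. Scanner files and detection calls were not used here, so no bound for dim signals could be set, and the number of arrays limits precision.

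The platform annotation gives 1 symbol to 36176 of 135750 clusters, several to 1119 and none to 98455. Genes were named only from clusters with 1 symbol, and 1576 of 33616 genes had more than 1 cluster. RefSeq GRCh38.p14 gave gene types, neighbour order, updated list names and promoters. The members, the lists, the motifs and the 2-fold line were chosen with earlier results of these data known. Named genes were the 10 members, SOX4, up to 4 genes above the filter per list (the 2 largest differences, the highest and the lowest), direct neighbours past 2-fold, and the 3 genes closest in difference to the highest and lowest member. Markers, family members given for context and genes said to be picked after their values were seen stand outside that rule. No test was run. The counting code was checked on simulated data with large changes put in and noise set from genes under the filter. That check does not bear on how many 2-fold differences in these arrays are noise. Alternatives changed the normalization, centring, level trend, cluster choice, level filter and fold line. Python 3.11.15, pandas 2.3.3 and numpy 2.4.6 were used.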

Additional observations from a re-analysis of the deposited data

How the results depend on the processing

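The differences of IGF1R, IGF2R, IGFBP1, IGFBP2, IGFBP3, IGFBP4, IGFBP6, IRS1 and IRS2 kept their sign and their side of the 2-fold line under quantile normalization, centring, removal of the level trend, averaging of clusters and choice of the cluster by its parental value. IGFBP1 ranged from 3.47 to 3.55, IGFBP3 from 2.98 to 3.07 and IRS2 from -1.29 to -1.01. IGF2 ranged from -1.04 to -0.96 and passed 2-fold after quantile normalization (-1.02) and after removal of the level trend (-1.04). In these settings 2 genes were lower in place of 1. The main value of IGF2 was 0.0032 short of the line, so a small shift is enough to change that count. The cause of the shifts was not tested. At a 1.5-fold line 3 genes of the axis were lower and at a 4-fold line 0 were, by construction of the line. Among genes above the filter, 2605 were higher and 1882 lower at 1.5-fold, 226 and 80 at 4-fold, and 643 and 332 with the filter at the 75th percentile, where fewer genes were counted. Of the genes in the related lists, 42 were apart at 1.5-fold and 4 at 4-fold. That stricter filter leaves fewer genes per list and keeps a gene by the higher of both array values. Under it, the medians of 4 of 10 lists moved by more than 0.30, the SD among dim genes. IGFBP proteases moved from 0.08 to 1.39 and IGFBP-related secreted proteins from 0.39 to 0.70. FOXO factors and targets moved from -0.12 to -0.45 and the growth hormone arm from -0.03 to 0.33, a change of sign. No list median moved that far under the other alternatives. The median of the axis was -0.11 under the stricter filter and -0.54 over members above the level filter. No paired analysis was possible because each genotype had 1 array. With 1 array per genotype, no replicate could be left out and depth could not be judged.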

Other observations

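Among the transcript clusters numbered directly before or after the cluster of a gene of the axis, 13 had no gene name, and 1 of them was at least 2-fold apart. TC0700010964.hg.1, numbered just before IGFBP3, stood at 5.37 with the knockout and 3.90 in parental cells, a difference of 1.47, with the parental value under the level filter. The cluster after IGFBP3, TC0700010966.hg.1, stood at 5.29 and 5.27. The unnamed cluster numbered before IGF1R, TC1500008484.hg.1, stood at 9.74 and 9.46, a difference of 0.28 beside the 0.31 of IGF1R. These clusters were picked after their values were seen.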
